A study of Drosophila melanogaster with 6 samples.

Results

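The genes described are 9 loci that encode RNA-binding proteins of the nervous system: the ELAV family members elav, fne and Rbp9, and bru3, Syp, Imp, Rbfox1, mub and pum. They were taken by name, with earlier results of these data known. Of the 9 genes, 8 were found by their current identifier among the 17559 gene identifiers of each count table, and all 8 passed the filter on low counts. The current identifier of Imp, FBgn0285926, was not among those analysed here, so Imp has no value below, and the same holds for the identifier that the annotation gives lola, the mutated gene. Genes were looked up by current identifier, and rows that may stand under earlier identifiers of Imp or lola were not used, since no table used here pairs them.

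RNA was sequenced in 6 samples, each a pool of 100 whole embryos of Drosophila melanogaster aged 20 to 22 hours, shortly before hatching. The mutant group (3 samples) had the genotype lola-O / Df(2R)ED2076, a mutation of isoform O of lola over a deficiency, and the control group (3 samples) had the genotype Wild type / Df(2R)ED2076. Both groups thus carried the same deficiency over their other second chromosome. The gene lola encodes BTB zinc-finger transcription factors that act in axon growth and guidance. Whether the 3 samples of each group were collected separately is not stated in the labels. The spread behind every p-value is the one between these samples and may be technical.

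RNA-binding proteins of neurons set how a transcript is spliced, where it ends, where it travels and how much protein it gives. In Drosophila, ELAV is made in nearly all neurons, where it directs neural splicing and the use of distal polyadenylation sites, which gives neural transcripts long 3' untranslated regions. FNE and RBP9 are its close relatives, and FNE can take over ELAV targets when ELAV is missing. Imp and Syp are known for opposing gradients that time the identity of neurons born from ageing neuroblasts.

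Total counts ranged from 16217213 to 22759638 per sample. Of 10312 tested genes, 4093 (39.7%) differed between the groups by edgeR at an adjusted p below 0.05, 2087 of them higher (20.2%) and 2006 lower (19.5%) in the mutant. Levels are given as CPM, the counts a gene would have in a library of 1000000 counts, with TMM scaling between libraries, and differences as log2 fold changes of mutant over control. Summed levels of the fixed neuron markers (12 of 14 with a row, none at 0) were 2879 to 3005 CPM in mutant libraries against 3093 to 3140 CPM in control libraries. Summed muscle markers (8 of 9 with a row, none at 0) were 24622 to 25077 CPM and 28150 to 28447 CPM. In whole-embryo RNA, fewer cells of a type and less RNA per cell cannot be told apart, and the part of cell make-up in the results below was not tested.

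As a group, the neural RNA-binding protein genes were slightly lower in the mutant embryos. Of the 8 tested genes, 6 fell (elav, Rbp9, bru3, Rbfox1, mub and pum), none rose, and fne and Syp did not pass. Of all tested genes 19.5% fell. In the tenth of tested genes with the longest transcripts, which holds all 8, 60.8% fell. The median log2 fold change of the 8 genes was -0.17, beside 0.001 over all 10312 tested genes. Among the genes with the longest transcripts the median was -0.14, so the 8 genes lay close to genes of like length. The levels of 7 of the 8 were lower in every mutant library than in any control library, which held for 23.7% of all tested genes. The 8 genes spanned -0.77 to -0.0082 on the log2 scale, and the falls that passed were between 9.52% (bru3) and 24.1% (Rbp9) of the control level.

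**Figure D1:**
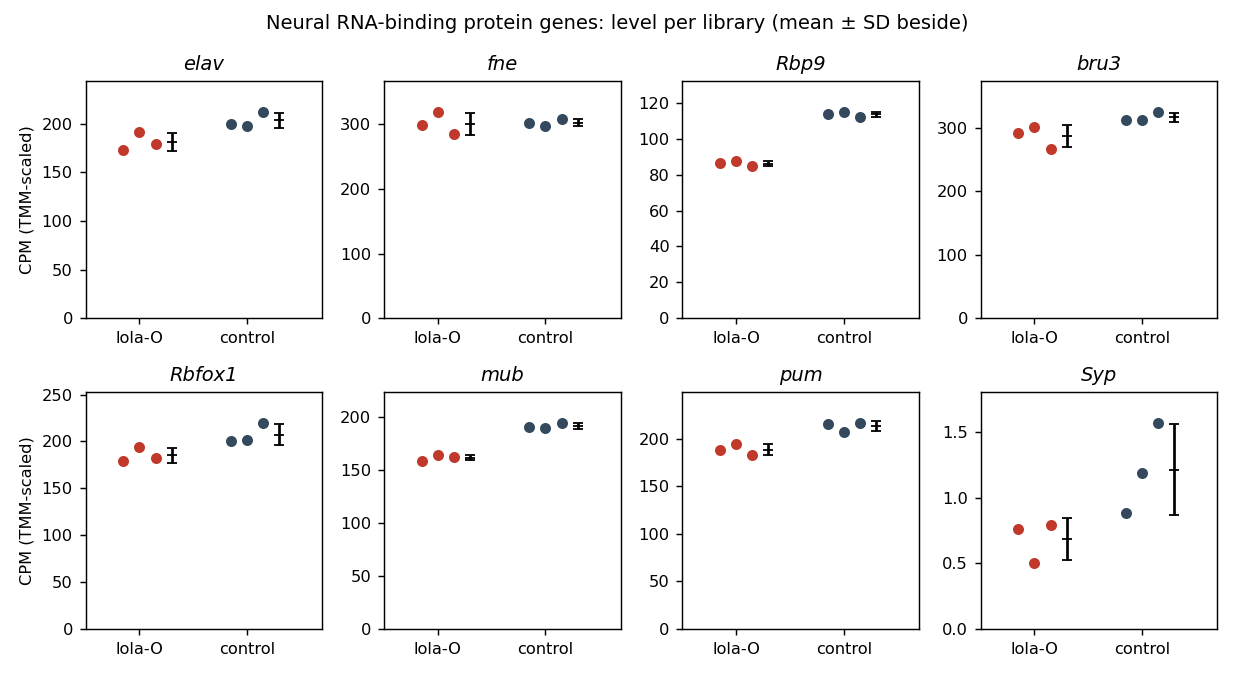
Level of each gene (vertical axis, CPM after TMM scaling, from 0) in the 3 lola-O mutant and 3 control libraries (points), with the group mean ± SD beside them. Rbp9 shows the widest gap for its spread, 84.6 to 87.6 against 112 to 115 CPM, the groups of fne overlap, and Syp lies near 1 CPM.

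All 8 genes have long transcripts, and in these data the fold change ran along transcript length. The longest annotated transcript of each gene measured from 6692 bases (Rbfox1) to 11975 bases (mub), beside a median of 2001 bases over tested genes, and all 8 fell in the decile of tested genes with the longest transcripts. Their longest annotated 3' untranslated regions measured 3447 bases (Rbfox1) to 9514 bases (mub), beside a median of 296 bases over tested genes that have one. In that longest decile of 1011 genes the median log2 fold change was -0.14 and 615 genes (60.8%) fell, while in the decile with the shortest transcripts the median was 0.097 and 102 genes (10.1%) fell. The tilt was present in every library: the median level of the longest decile, on the log2 scale and centred per gene over the 6 libraries, lay between -0.09 and -0.05 for mutants and between 0.066 and 0.085 for controls. Values are therefore also given after a length correction, a choice made with earlier results of these data known. The correction removes a smooth trend on transcript length from each library, so that each gene is read against genes of like length. This does not show whether the trend arose in the embryos or in the libraries, which was not tested.

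After the length correction, 2 of the 8 genes passed: Rbp9 fell and fne rose, while elav, Syp, bru3, Rbfox1, mub and pum did not pass. Of 10110 genes tested this way, 31.6% passed: 14.9% fell and 16.7% rose. The median over the 8 genes was -0.018, beside 0.0013 over all genes tested.

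**Figure D2:**
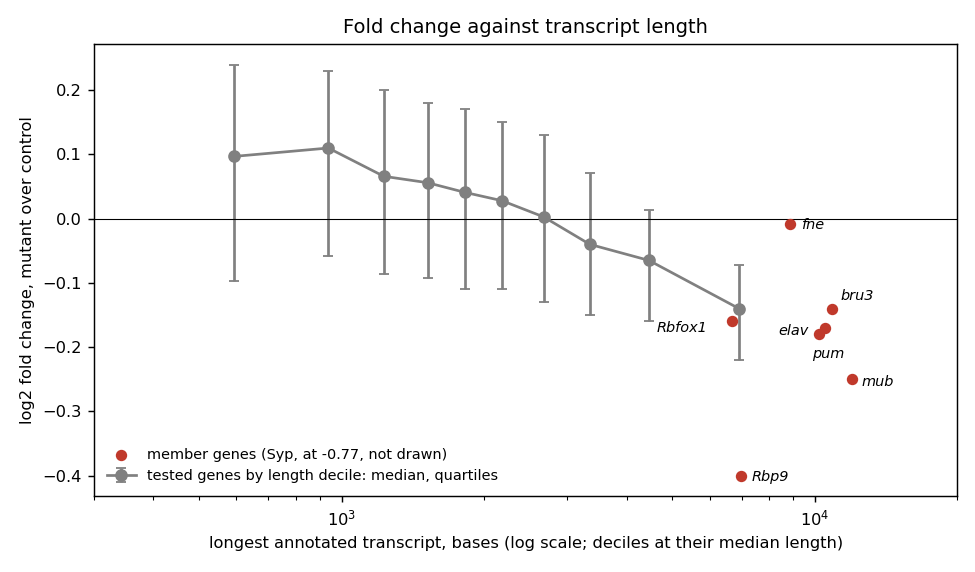
Log2 fold change of mutant over control (vertical axis) against the longest annotated transcript in bases (horizontal axis, log scale). Grey points and bars are medians and quartiles of tested genes in 10 length deciles, which run from 0.097 to -0.14, and red points are 7 of the described genes, with fne (-0.0082) above and Rbp9 (-0.40) below the trend.

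The founding member of the ELAV family, elav (X, 509235 to 523226, minus strand of BDGP6.54, 4 annotated transcripts), gave 173, 191 and 179 CPM for mutants 1 to 3 against 200, 198 and 212 CPM for controls 1 to 3. All 3 mutant libraries were below all 3 controls. The means were 181 ± 9.21 and 203 ± 7.58 CPM (SD, n = 3 each), and the log2 fold change was -0.17 (95% interval -0.24 to -0.10, edgeR adjusted p = 2.83e-05). Corrected for length, its levels were 193, 209 and 203 CPM for mutants 1 to 3 against 198, 195 and 206 CPM for controls 1 to 3. The groups then overlapped, and the log2 fold change was 0.014 (interval -0.048 to 0.075, edgeR adjusted p = 0.791). Exons of elav share 673 bases with arg on the opposite strand. They also share 2994 bases (27.9% of the exon bases of elav) with lncRNA:enrr on the same strand, whose identifier was not among those analysed here. Whether reads of these regions were divided between genes was not tested.

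The relative fne (X, 12917477 to 12950417, plus strand, 11 transcripts), which encodes a mainly cytoplasmic ELAV-like protein of neurons, gave 299, 319 and 285 CPM for mutants 1 to 3 against 302, 298 and 308 CPM for controls 1 to 3. The groups overlapped, with the highest and the lowest of the 6 values both in mutants. The log2 fold change was -0.0082 (interval -0.071 to 0.054, edgeR adjusted p = 0.864), which holds changes from -4.78% to 3.84%. Corrected for length, fne gave 331, 347 and 320 CPM for the mutants against 300, 296 and 301 CPM for the controls. These groups did not overlap, as was so for 21.3% of genes in this direction, and fne then rose by 0.15 (log2) with an SE of 0.029 and an edgeR adjusted p of 7.86e-06. Among the 1011 genes of the longest decile, the uncorrected value of fne was higher than that of 88.3%.

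Rbp9 (2L, 2954762 to 2968434, plus strand, 9 transcripts), which in Drosophila acts in the nervous system and in the differentiation of egg cells, showed the clearest difference of the family. It gave 86.6, 87.6 and 84.6 CPM for mutants 1 to 3, from 1702, 1399 and 1713 counts, against 114, 115 and 112 CPM for controls 1 to 3, from 2457, 2610 and 1994 counts. The groups were far apart for their spread. The means of 86.3 ± 1.52 and 114 ± 1.60 CPM (SD, n = 3 each) differed by a log2 fold change of -0.40 with an SE of 0.036 (edgeR adjusted p = 9.74e-15), which is 0.759 of the control level. Corrected for length, the levels were 94.5 ± 0.640 and 113 ± 2.36 CPM (SD, n = 3 each), and Rbp9 still fell, to 0.832 of the control level, at -0.27 with an SE of 0.035 (edgeR adjusted p = 1.59e-09). With libraries scaled to the summed neuron markers, a choice made after the data were seen, Rbp9 fell as well, at -0.31 (edgeR adjusted p = 4.94e-09). Exons of Rbp9 share 142 bases with Ts on the opposite strand.

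The balance within the family was read from ratios inside each library, which need no scaling between libraries. The log2 ratio of elav to fne counts was -0.79, -0.74 and -0.67 for mutants 1 to 3, against -0.59, -0.59 and -0.54 for controls 1 to 3. Every mutant was lower than every control, and the group means differed by -0.16. The log2 ratio of elav to Rbp9 counts was 1.00, 1.12 and 1.08 for the mutants, against 0.82, 0.78 and 0.92 for the controls. Here every mutant was higher, and the means differed by 0.23. Both ratios gave p = 0.1 in an exact 2-sided permutation test over samples (0.1 after adjustment over the 2 ratios), the smallest p that 3 against 3 samples allow, so neither can pass 0.05. After the length trend was removed the differences were -0.14 and 0.28.

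**Figure D3:**
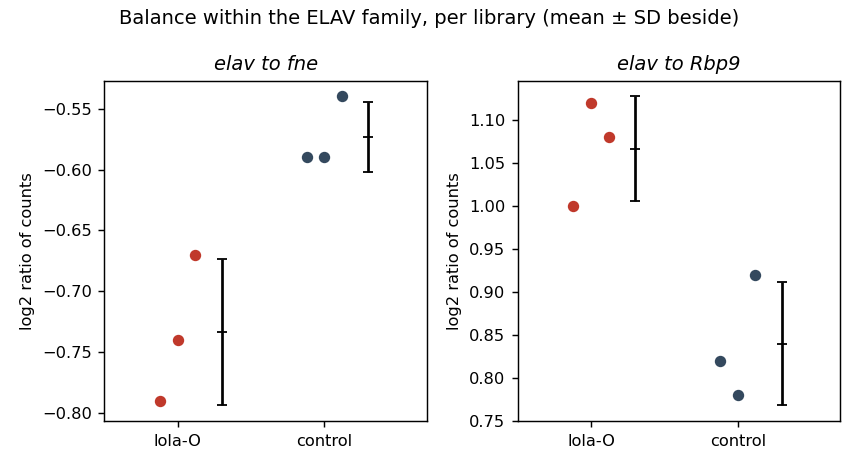
Log2 ratio of raw counts of elav to fne (left) and of elav to Rbp9 (right) in each lola-O mutant and control library (points), with the group mean ± SD beside them. The mutants lie at -0.79 to -0.67 against -0.59 to -0.54 on the left, and at 1.00 to 1.12 against 0.78 to 0.92 on the right.

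The X-linked genes elav and fne also depend on dosage compensation, which raises X transcription in males. Of the 3 male dosage markers, lncRNA:roX2 rose from 6.92 ± 0.502 to 9.52 ± 0.938 CPM (SD, n = 3 each), at 0.46 on the log2 scale (edgeR adjusted p = 3.60e-04). lncRNA:roX1 fell from 488 to 461 CPM on average (-0.081, edgeR adjusted p = 0.0179), and msl-2 had 0.11 (edgeR adjusted p = 0.107). With the length correction lncRNA:roX2 (0.40, edgeR adjusted p = 0.00233) and msl-2 (0.16, edgeR adjusted p = 0.0185) were higher. There lncRNA:roX1 had 0.0028 (edgeR adjusted p = 0.953). The 3 together, most of it lncRNA:roX1, summed to 496 to 519 CPM for mutants and 516 to 543 CPM for controls. The part of the sex make-up of the pools in the X-linked values was not tested.

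Among the splicing regulators outside the ELAV family, bru3 and Rbfox1 were slightly lower in the mutants. The CELF family gene bru3 (3L, 13521907 to 13803400, minus strand, 18 transcripts) gave 292, 301 and 267 CPM for mutants 1 to 3 against 312, 313 and 325 CPM for controls 1 to 3. The groups did not overlap, and bru3 fell, with a log2 fold change of -0.14 and an SE of 0.033 (edgeR adjusted p = 2.77e-04); without mutant 3 the change was -0.091 (edgeR adjusted p = 0.0304). Rbfox1 (3L, 10481412 to 10594012, plus strand, 9 transcripts), a splicing and translation regulator of neurons, muscle and germline, gave 179, 194 and 182 CPM for mutants 1 to 3 against 200, 202 and 220 CPM for controls 1 to 3. It was lower in every mutant library, at -0.16 (SE 0.034, edgeR adjusted p = 6.45e-05). Corrected for length, the groups of both genes overlapped, at 0.043 for bru3 (interval -0.015 to 0.10, edgeR adjusted p = 0.278) and -0.037 for Rbfox1 (interval -0.099 to 0.026, edgeR adjusted p = 0.404).

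The other abundant members, mub and pum, were lower by 15.7% and 11.6%. The gene mub (3L, 21844788 to 21932702, plus strand, 12 transcripts), named for its expression in mushroom bodies, encodes a KH-domain protein of the poly(C)-binding kind. It gave 159, 164 and 163 CPM for mutants 1 to 3 against 191, 190 and 195 CPM for controls 1 to 3. These groups were well apart, at -0.25 on the log2 scale with an SE of 0.032 (edgeR adjusted p = 1.37e-09). The translational repressor gene pum (3R, 9066343 to 9237682, minus strand, 8 transcripts), whose protein works with Nanos and Brat and limits neuronal excitability, gave 188, 195 and 183 CPM for mutants 1 to 3 against 216, 207 and 217 CPM for controls 1 to 3. It too was lower in every mutant library, at -0.18 (SE 0.032, edgeR adjusted p = 4.16e-06). Corrected for length, mub had -0.046 (interval -0.11 to 0.015, edgeR adjusted p = 0.263) and pum 0.0013 (interval -0.059 to 0.061, edgeR adjusted p = 0.981).

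Scaling the libraries to the summed neuron markers, a choice made after the data were seen, left 3 of the 8 genes past the threshold, all lower: Rbp9, mub (-0.16, edgeR adjusted p = 2.37e-04) and pum (-0.09, edgeR adjusted p = 0.0368). In that fit 40.4% of all tested genes passed, 31% higher and 9.46% lower, beside 20.2% and 19.5% with TMM scaling. There elav had -0.082 (adjusted p = 0.065), fne 0.08 (adjusted p = 0.0662), Rbfox1 -0.076 (adjusted p = 0.0938) and bru3 -0.056 (adjusted p = 0.223) by edgeR. Among the 8 genes, Rbp9 was the one called in the same direction with TMM scaling, with the length correction and with neuron-marker scaling.

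**Figure D4:**
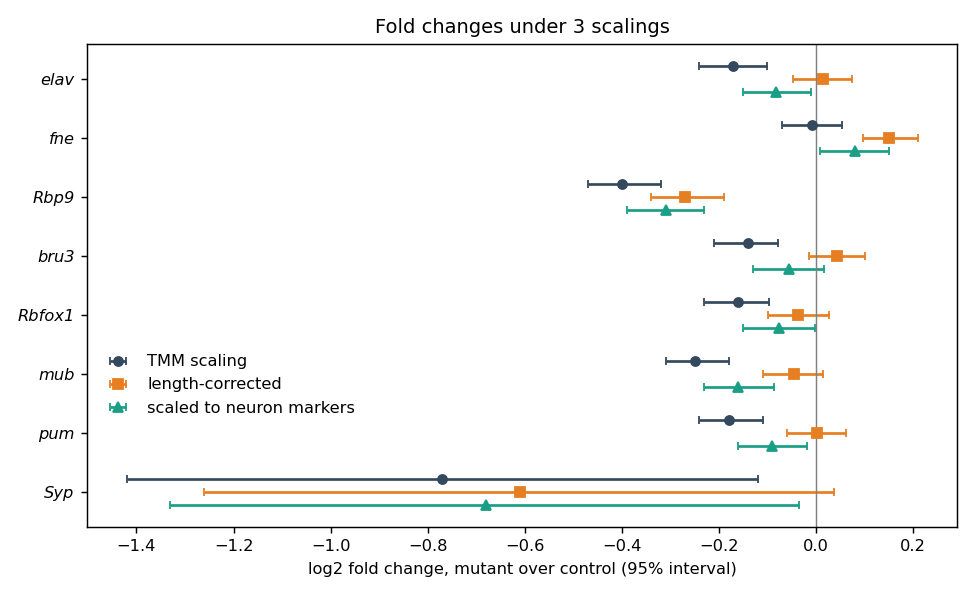
Log2 fold change of mutant over control (horizontal axis) with its 95% interval for each of the 8 genes, with TMM scaling, with the length correction and with libraries scaled to neuron markers. The interval of Rbp9 stays below 0 in each. That of fne lies above 0 with the length correction (0.097 to 0.21) and with neuron-marker scaling (0.0087 to 0.15). That of Syp is the widest (-1.42 to -0.12 with TMM scaling). Intervals are not adjusted for the number of genes tested, so they can leave out 0 for genes that were not called.

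Syp (3R, 20756729 to 20810726, plus strand, 20 transcripts), which encodes the fly relative of the mRNA-binding protein SYNCRIP, stood apart by its low counts. Its row held 15, 8 and 16 counts for mutants 1 to 3 and 19, 27 and 28 counts for controls 1 to 3, or 0.501 to 0.791 CPM against 0.879 to 1.57 CPM. The mutants were lower than the controls, but counting error alone is 35.4% in the smallest of these libraries. The log2 fold change of -0.77 (interval -1.42 to -0.12) did not pass edgeR (adjusted p = 0.0506). It passed without control 1 (-0.96, edgeR adjusted p = 0.0265) and with a replicate block (-0.80, edgeR adjusted p = 0.0468). No exon of another gene overlaps the exons of Syp in BDGP6.54. The level was below that of 94.4% of tested genes, and whether reads of this locus were counted under another identifier was not tested.

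Per kilobase of the longest annotated transcript, the order of the control levels was fne at 34.1 ± 0.541, Rbfox1 at 31.0 ± 1.64, bru3 at 29.2 ± 0.648, pum at 20.9 ± 0.538, elav at 19.4 ± 0.721, Rbp9 at 16.3 ± 0.229, mub at 16.0 ± 0.239 and Syp at 0.140 ± 0.0400 CPM per kilobase (SD, n = 3 each). The neighbours Rbfox1 and bru3, and Rbp9 and mub, lay within their spread of each other. In the mutants the order was the same except that mub (13.5 ± 0.236) came before Rbp9 (12.4 ± 0.217). With the union of exons as the length, elav came before pum and mub before Rbp9 in the controls. Which transcripts the embryos used was not measured, so the order depends on the annotated lengths.

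Genes that work beside these proteins were read from lists, in which the 8 described genes were not counted. The lists overlap, so their counts are not independent. The gene brat is counted among the other RNA-binding proteins, the ELAV-regulated genes and the Pumilio partners. Adar is counted in the first and second of these. Of 24 other RNA-binding protein genes, 11 fell and 3 rose (median -0.11), beside 19.5% and 20.2% of all tested genes. With the length correction 1 fell and 6 rose (median 0.022), beside 14.9% and 16.7% of all genes tested this way. Without the correction, the 3 with the smallest adjusted p were sm at -0.24 (2.96e-09), stau at -0.29 (6.28e-09) and brat at -0.23 (6.64e-08) by edgeR. The double-stranded RNA-binding transport factor gene stau was the one still lower with the length correction, at -0.20 (edgeR adjusted p = 2.25e-05). The 6 higher with the correction, named after their values were seen, were sqd (0.24), Fmr1 (0.20), Hrb27C (0.19), me31B (0.13), shep (0.12) and Caper (0.12).

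Of 9 tested genes whose splicing or 3' ends ELAV-family proteins regulate, 8 fell and none rose (median -0.17), beside 19.5% and 20.2% of all tested genes. With the length correction 2 fell and 1 rose (median -0.021), beside 14.9% and 16.7% of all genes tested this way. The neuronal transcription factor gene ewg, whose neural splice form depends on ELAV, fell from 50.9 ± 1.44 to 40.3 ± 0.232 CPM (SD, n = 3 each), at -0.34 (edgeR adjusted p = 3.25e-08) and at -0.26 with the correction (edgeR adjusted p = 1.26e-05). The adhesion gene Dscam1 had -0.23 (edgeR adjusted p = 1.31e-08) and -0.067 with the correction (adjusted p = 0.0916). Gene counts sum over isoforms, so they do not measure splice choice or the length of 3' ends.

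Of 5 tested partners and targets of Pumilio, brat fell and eIF4E1, the cap-binding initiation factor gene, rose by 0.10 (edgeR adjusted p = 0.0166). Of all tested genes, 19.5% fell and 20.2% rose. The genes hb, CycB and GluRIIA did not pass. No row was found for nos and para, also on this list, and whether they stand under earlier identifiers was not tested. With the length correction none of the 5 passed edgeR at an adjusted p below 0.05 (the smallest was 0.219).

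Of 5 tested temporal identity genes that Imp and Syp are known to regulate, or that act with them, chinmo, lin-28, svp and cas fell, beside 19.5% of all tested genes. Eip93F had -0.92 (edgeR adjusted p = 0.133), from at most 14 counts per library. Its levels were 0.305 ± 0.226 CPM in mutants and 0.554 ± 0.137 CPM in controls (SD, n = 3 each). With the length correction chinmo, lin-28 and cas fell, beside 14.9% of all genes, and svp had -0.11 (edgeR adjusted p = 0.189). The list median was -0.36, and -0.34 with the correction. The RNA-binding protein gene lin-28, known for its part in developmental timing, was at 7.96 ± 0.234 CPM against 15.3 ± 1.29 CPM in control libraries (SD, n = 3 each). It had a log2 fold change of -0.94 with an SE of 0.093 (edgeR adjusted p = 2.62e-13), and of -1.01 with the correction (adjusted p = 1.09e-15). The BTB zinc-finger gene chinmo, which marks early-born neurons, had -0.33 (edgeR adjusted p = 2.88e-12) and -0.12 with the correction (adjusted p = 9.52e-05). The zinc-finger gene cas, a late factor of the neuroblast series, had -0.36 (edgeR adjusted p = 0.00346) and -0.34 with the correction (adjusted p = 0.00758). The row of br was not among those analysed here, and mamo was below the filter on low counts.

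Part of the neuron markers and most of the muscle markers fell with TMM scaling, as did 19.5% of all tested genes. Of 12 tested neuron markers, 6 fell, none rose and 6 did not pass (median -0.092), with cac at -0.19, brp at -0.16 and Syx1A at -0.18. With the length correction 1 fell and 4 rose (median 0.02), beside 14.9% and 16.7% of all genes tested this way. There cac (-0.0059) and brp (0.04) did not pass and Syx1A (-0.12) still fell. The 4 neuron markers that rose were Syt1 (0.13), futsch (0.13, from -0.14 with TMM scaling), Vmat (0.10) and cpx (0.071). Of 8 tested muscle markers, 6 fell and 1 rose (median -0.20), with bt at -0.47, sls at -0.31, Mhc at -0.20 and up at 0.063. With the correction 5 fell and 1 rose (median -0.074), beside the same shares of all genes. The 1 that rose there was sls, at 0.065 (edgeR adjusted p = 0.0315), while bt (-0.17) and Mhc (-0.063) still fell. The difference between Rbp9 and the markers is given as values and has no test of its own, other than the fit scaled to the neuron markers.

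**Figure D5:**
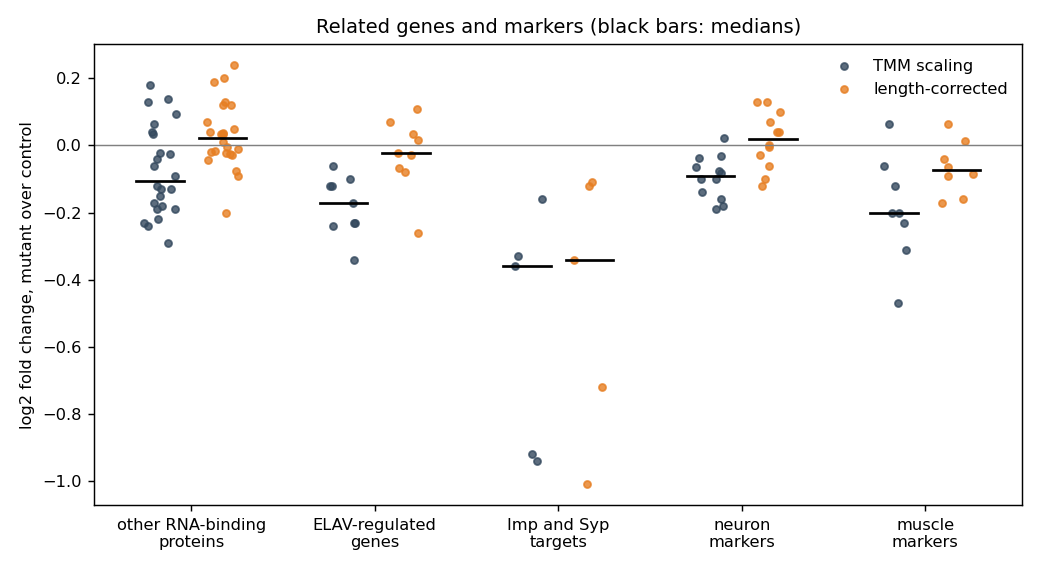
Log2 fold change of mutant over control (vertical axis) for tested genes of 5 lists, without the 8 described genes, with TMM scaling and with the length correction; points are genes and black bars are medians. The medians of the other RNA-binding proteins (-0.11 to 0.022), the ELAV-regulated genes (-0.17 to -0.021) and the neuron markers (-0.092 to 0.02) move to near 0 with the correction. The median of the list labelled Imp and Syp targets, which also holds genes that act with Imp and Syp, does not (-0.36 to -0.34).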

How the data were processed

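Raw read counts, 1 whole number for each FlyBase gene identifier, were deposited by the authors. The submitters' processing notes name build BDGP6 and the tools bedtools 2.25.0, SAMtools 1.3.1, STAR 2.5.2b and Subread 1.5.1. What each tool did, how strand was treated and which annotation was counted is not given in the sources used here. Symbols, positions and lengths come from Ensembl release 115 (BDGP6.54), which matched 17253 of 17559 identifiers. Changes were tested in R 4.3.3 with edgeR 4.0.16 (TMM, filterByExpr by group, robust glmQLFit and glmQLFTest, 2-sided, Benjamini-Hochberg over all tested genes, calls at adjusted p below 0.05); standard errors are the fold change over the square root of F. The length correction enters, as an offset per library, a lowess trend (span 0.3) of centred log2 CPM (prior count 2) on the longest transcript, over 10110 genes. Both fits were run on simulated counts, with no length trend or with a trend straight on log2 length and equal in all mutant libraries. Trends of other shapes, or that differ between libraries, were not simulated. The other tools were DESeq2 1.42.0 and limma-voom (limma 3.58.1). Replicates of a group differed by more than sampling noise (chi-square per degree of freedom 1.94 to 6.14). A count of 0 allows up to 3 counts, 0.132 to 0.185 CPM; counting errors cover counting only. All 9 genes are named, with up to 3 called genes per list (those of lowest adjusted p) and the nearest profiles; other names were chosen after their values were seen. The members and lists were chosen with earlier results of these data known.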

Additional observations from a re-analysis of the deposited data

How the results depend on the processing

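With the length correction, 2 of the 8 genes were called in place of 6, with the union of exons as the length also 2, and with libraries scaled to neuron markers 3. The sign turned for elav (0.014 with the longest transcript, 0.0022 with the union of exons), bru3 (0.043 and 0.048), pum (0.0013 and 0.0047) and fne (0.15 in both, and 0.08 scaled to neuron markers); Rbfox1 (-0.037) and mub (-0.046) kept their sign and were not called with the longest transcript. The cause of these shifts was not tested. Upper-quartile or RLE scaling, no filter on low counts, a filter of 5 CPM in 3 samples (where Syp was not tested), DESeq2 and limma-voom called the same 6 genes lower. Leaving out each sample in turn gave 3481 to 3872 called genes in place of 4093 and 6 to 7 of the 8 genes; fne ranged from -0.05 to 0.033, bru3 from -0.18 to -0.091, Rbp9 from -0.41 to -0.38, and the ratios of elav to fne and to Rbp9 from -0.19 to -0.13 and 0.20 to 0.27. With the length correction it gave 2 called genes of the 8 each time, with elav from -0.011 to 0.044 and pum from -0.018 to 0.013. The replicate block called 4077 genes and 7 of the 8, and 2 of the 8 with the length correction; paired sign-flip tests of the ratios gave -0.16 and 0.23 (exact p = 0.25 each, the smallest 3 pairs allow). Deviations of same-numbered samples correlated at 0.0225, -0.0276 and 0.0425, and mutant 1 correlated best with control 2, so the numbers were not treated as pairs. The ratio of Imp to Syp was not run, since no row was found under the current identifier of Imp. The low counts of Syp limit it to large changes.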

Other observations

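Progenitor, glial and germline markers gave further values beside these genes. Of 7 tested neural progenitor markers, grh (-0.33, edgeR adjusted p = 1.78e-10), pros (-0.32, adjusted p = 4.99e-07) and insc (-0.40, adjusted p = 0.0115) fell and none rose. Of all tested genes, 19.5% fell and 20.2% rose. With the length correction grh and insc fell, beside 14.9% of all genes, and pros did not pass (edgeR adjusted p = 0.544). Mean levels in mutants and controls were 72.2 and 90.7 CPM for grh, and 43.8 and 54.9 CPM for pros. The neuroblast genes dpn (0.051), ase (-0.06) and wor (0.23) were at 1.92 to 2.66 CPM on average in each group and did not pass, nor did mira (-0.29). Which cells the reads of the progenitor markers came from was not tested. Of 10 tested glia markers, moody and loco fell and Eaat1 and alrm rose, beside the same shares of all tested genes. The summed level of the 10 was 1161 to 1186 CPM in the mutants and 1163 to 1181 CPM in the controls. The germline markers with a row summed to 11.8 to 12.5 CPM and 12.1 to 13.2 CPM.

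Of the 7 described genes with at least 100 counts in every library, all 7 had their highest mutant level in mutant 2, and 6 had their highest control level in control 3. The lowest mutant level was in mutant 1 for 3 of them and in mutant 3 for 4. Tested genes of the longest decile, which holds these 7, showed the same order as a whole. Their median centred log2 CPM was highest in mutant 2 (-0.05) among the mutants and in control 3 (0.085) among the controls. With the length correction, 5 of the 7 described genes were highest in mutant 2 among the mutants and 5 in control 3 among the controls.

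Over 7107 tested genes that averaged 10 CPM or more, the centred log2 CPM profiles over the 6 samples nearest to elav were those of Abl and jim, with root mean square differences of 0.015 and 0.016. The nearest to mub were jigr1 and Sxl (0.010 each), to pum Dys and AGO1 (0.010 and 0.011), and to fne Raf and cindr (0.016 each). The nearest to Rbfox1 were Wnk and Abl (0.017 each). CG6424 was the nearest to Rbp9 (0.014) and Nuak to bru3 (0.020). The nearest to Syp were CG42728 and CG12868, both at 0.24, farther than for the other genes.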
